A study of Mus musculus with 2 samples.

Results

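Motile cilia and multiciliation genes were followed in single Sox1-GFP+ cells of the mouse, as 40 of the 19608 genes in 2 libraries. The set was a fixed list made up of 4 early regulators (Foxj1, Mcidas, Deup1 and Ccno), the RFX factors Rfx2 and Rfx3, and 34 genes of the axoneme and its surroundings, called the axoneme members here. Sox1-GFP+ cells came from the postnatal tail (1 library) and the adult brain (1 library) of knock-in mice in which a green fluorescent protein reports activity of Sox1, a gene of the neuroepithelium. Minced tissue was dissociated with trypsin, GFP+ cells were sorted, and messenger RNA was captured with the BD Rhapsody system, in which a molecular identifier lets PCR copies count as 1 molecule. Both groups carried the same reporter and no treatment. The sort selects on the reporter and not on cilia, and whole tissue was minced, so cells of several kinds could enter. Tissue, age and library cannot be told apart, there were no replicates, and no test between the groups was run. Intervals are 95% and cover counting error only.

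After filtering, 1964 of 2469 tail barcodes and 7988 of 12111 brain barcodes were kept, with medians of 1282.5 and 696 molecules per cell and 2817103 and 6424466 molecules in all. The libraries shared 29 barcode sequences, 18 of them kept in both. Of all genes, 16301 were found in at least 3 kept cells. Levels are given as CPM, the molecules of a gene per 1000000 molecules of the same cells. Scaling by the trimmed mean of M values (TMM), which sets the bulk of genes equal, would shift every ratio of tail over brain by -0.39 on the log2 scale, and the ratios below are relative to total molecules. Of the members, 7804 molecules were counted in kept tail cells and 2376 in kept brain cells.

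A motile cilium is a beating extension of the cell surface built on a basal body, and multiciliated cells, such as the ependymal cells that line the brain ventricles and the central canal of the spinal cord, carry many of them. Gmnc and Mcidas encode geminin-family proteins that start the programme, Ccno encodes an atypical cyclin, and Deup1 encodes a scaffold on which many centrioles are made at once. Foxj1 and the RFX factors switch on genes of the axoneme, a ring of doublet microtubules around a central pair. Outer and inner dynein arms drive the beat, radial spokes link the ring to the central apparatus, and tektins, CFAP proteins and the Ccdc39-Ccdc40 ruler build and space the doublets.

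RFX factors recognise the X-box, so the stretch before the start of each member was searched for it. RefSeq promoter windows on GRCm38.p6 matched 36 of the 40 members. Foxj1, Rsph1, Rsph4a and 1700016K19Rik had no entry. In the 250 bases before a RefSeq start, on either strand, a full X-box was present at 10 of 36 members (27.8%) and at 402 of 27025 genes (1.49%). The shorter half-site GTTNCC, which can lie inside an X-box, was present at 80.6% of members and 42.8% of all genes. The forkhead motif GTAAACA was present at 5.56% of members and 3.54% of all genes. A match is a description, not a bound site. The start differs by annotation: in GENCODE, Dnaic1 starts at the first base of the X-box marked here and Dynlrb2 starts inside its own, so these sites are not before that start. The 4 X-boxes shown are those of Ccno, the early regulator that held one, of the dynein light chain gene Dynlrb2, of the radial spoke gene Lrrc23, and of Dnaic1, whose pattern across the libraries stood apart from the other members. Mcidas, which lies 3067 bases downstream of Ccno on chromosome 13 with 0 annotated genes between them, held a half-site only. Capitals mark the X-box, or the half-site in Mcidas, read 5′ to 3′ on the strand of the gene.
Ccno, chr13:112987552-112987641, + strand: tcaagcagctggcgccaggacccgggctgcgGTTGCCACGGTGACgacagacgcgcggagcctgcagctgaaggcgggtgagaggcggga
Mcidas, chr13:112993631-112993720, + strand: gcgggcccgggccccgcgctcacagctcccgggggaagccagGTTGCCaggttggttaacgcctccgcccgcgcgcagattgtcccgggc
Dynlrb2, chr8:116504925-116505014, + strand: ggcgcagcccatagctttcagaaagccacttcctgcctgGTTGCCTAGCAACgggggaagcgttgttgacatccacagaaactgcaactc
Lrrc23, chr6:124779841-124779930, - strand: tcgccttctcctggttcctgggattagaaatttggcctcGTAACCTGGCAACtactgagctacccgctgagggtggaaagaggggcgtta
Dnaic1, chr4:41569704-41569793, + strand: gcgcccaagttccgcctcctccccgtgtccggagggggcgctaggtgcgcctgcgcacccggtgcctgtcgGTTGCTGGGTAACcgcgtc

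The first comparison asked how far each library carried the members, and 3 of the 4 early regulators were almost absent from the brain. Mcidas had 60 tail molecules (21.3 CPM) and 0 brain molecules. A count of 0 allows up to 3 molecules per library, against which the tail level was at least 45.6-fold higher. With the counting error of both counts, the lower limit of the ratio was 36.0. For Deup1, 200 tail and 3 brain molecules (71.0 and 0.467 CPM) gave a ratio of 152 (51.3 to 743). For Ccno, 195 tail molecules stood against a single brain molecule (69.2 and 0.156 CPM), so that its ratio of 445 has a wide interval (78.9 to 17654). These genes act before and during centriole amplification. Foxj1, which stays on in mature ciliated cells, was present in both libraries, with 760 tail and 99 brain molecules (269.8 and 15.4 CPM) and a ratio of 17.5 (14.2 to 21.8).

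The RFX factors differed between themselves. Rfx2 had 275 tail and 74 brain molecules (97.6 and 11.5 CPM), a ratio of 8.47 (6.53 to 11.1). Rfx3 had 146 and 190 molecules, or 51.8 and 29.6 CPM, and its ratio was only 1.75 (1.40 to 2.19). In the brain, 93.7% of Rfx3 molecules lay outside the ependymal-like cells and the Igfbp5 cells described below, against 25.3% in the tail.

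A gene was called at least 4-fold apart when it had at least 50 molecules over both sides and its whole interval lay beyond 4-fold. Of the 40 members, 39 reached 50 molecules, 27 were at least 4-fold higher in the tail, and 12 were neither higher nor lower. Among all 11347 genes tested, 6.35% were at least 4-fold higher in the tail. The filter sums both libraries, so members such as Mcidas, Deup1 and Ccno reached 50 molecules through the tail alone. The count of 27 is therefore partly fixed by the filter. No member was at least 4-fold lower, where the share over all genes was 4.66%. The median ratio was 10.0 over the 39 members and 1.21 over all genes tested, with Mcidas set at its bound. Under TMM scaling the count of 27 was 24, and the share over all genes under that scaling is not given here.

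By role, the doublet and docking genes had most calls, with 10 of 10 tested members called higher in the tail and a summed ratio of 12.0 (11.0 to 13.2). Cfap126 had 614 tail and 55 brain molecules, a ratio of 25.5 (19.3 to 34.2). Fam183b had 591 and 113 molecules, a ratio of 11.9 (9.74 to 14.7), and Ccdc39, of the ruler that sets dynein spacing, had 497 and 173, a ratio of 6.55 (5.50 to 7.83). Tekt4, a tektin gene, was the member short of 50 molecules, with 29 tail and 15 brain molecules and a ratio of 4.41 (2.29 to 8.85). The dynein arm genes had 6 of 9 called, the radial spoke genes 2 of 4, the central apparatus genes 2 of 4 and the remaining cilium genes 2 of 6. The share over all genes tested was 6.35%. A call also depends on the number of molecules, and doublet and docking genes held 2886 of the 6168 tail axoneme molecules.

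Members without a call fell into 2 kinds by where their brain molecules lay. Tmem212 (141 tail and 226 brain molecules, ratio 1.42, 1.14 to 1.76, or 1.09 under TMM), Ccdc153 (69 and 80, ratio 1.97, 1.40 to 2.75) and Ak7 (167 and 86, ratio 4.43, 3.39 to 5.81), the last an adenylate kinase of cilia, had 97.8%, 98.8% and 98.8% of their brain molecules in ependymal-like cells. Rsph4a and Spag16, of the spoke and the central apparatus, had 95.6% and 80.0% there, and Dnah5, an outer arm heavy chain, had 90.3%. The ratios of Rsph4a, Spag16 and Dnah5 were 5.47 (3.83 to 7.93), 5.29 (3.26 to 8.83) and 2.80 (1.69 to 4.65). 1110017D15Rik had 80.0% there and a ratio of 3.41 (2.75 to 4.24), and Hydin, of the central apparatus, had 58.1% and a ratio of 4.56 (2.92 to 7.26).

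The other kind was found mostly outside ependymal-like cells in the brain. Dnaic1, an intermediate chain of the outer dynein arm, had 61 tail and 226 brain molecules, a ratio of 0.616 (0.456 to 0.820), the one member whose level was lower in the tail. Of its 226 brain molecules, 18 lay in ependymal-like cells and 132 in astroglial-like cells. Enho, a gene on the opposite strand that overlaps Dnaic1, had 304 brain molecules, 193 of them in astroglial-like cells, and 14 tail molecules. Whether the counting kept the strands apart was not given in the sources used here, and the part of Enho in the Dnaic1 count was not tested. Rsph9, and Ccdc39 among the called members, also overlap counted genes on the opposite strand (Mrps18a and Ttc14) and had 85.2% and 73.4% of their brain molecules outside ependymal-like and Igfbp5 cells. Dnaic2, with no overlapping gene in the annotation, had 39 of its 52 brain molecules there, and Tekt4 had 14 of 15. The ratios of Rsph9 and Dnaic2 were 2.54 (1.77 to 3.65) and 5.26 (3.77 to 7.43). In all, 8 of the 40 members overlap a counted gene on the opposite strand and 0 overlap one on their own strand. Among these 8, Dnah11 had 63.0% of its brain molecules outside ependymal-like and Igfbp5 cells. Dnali1, Spag17, Pifo and Cfap43 had 5.88%, 8.33%, 0% and 19.5% there. Tekt1, a called member with no overlapping gene, had 53.8% there.

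**Figure D1:**
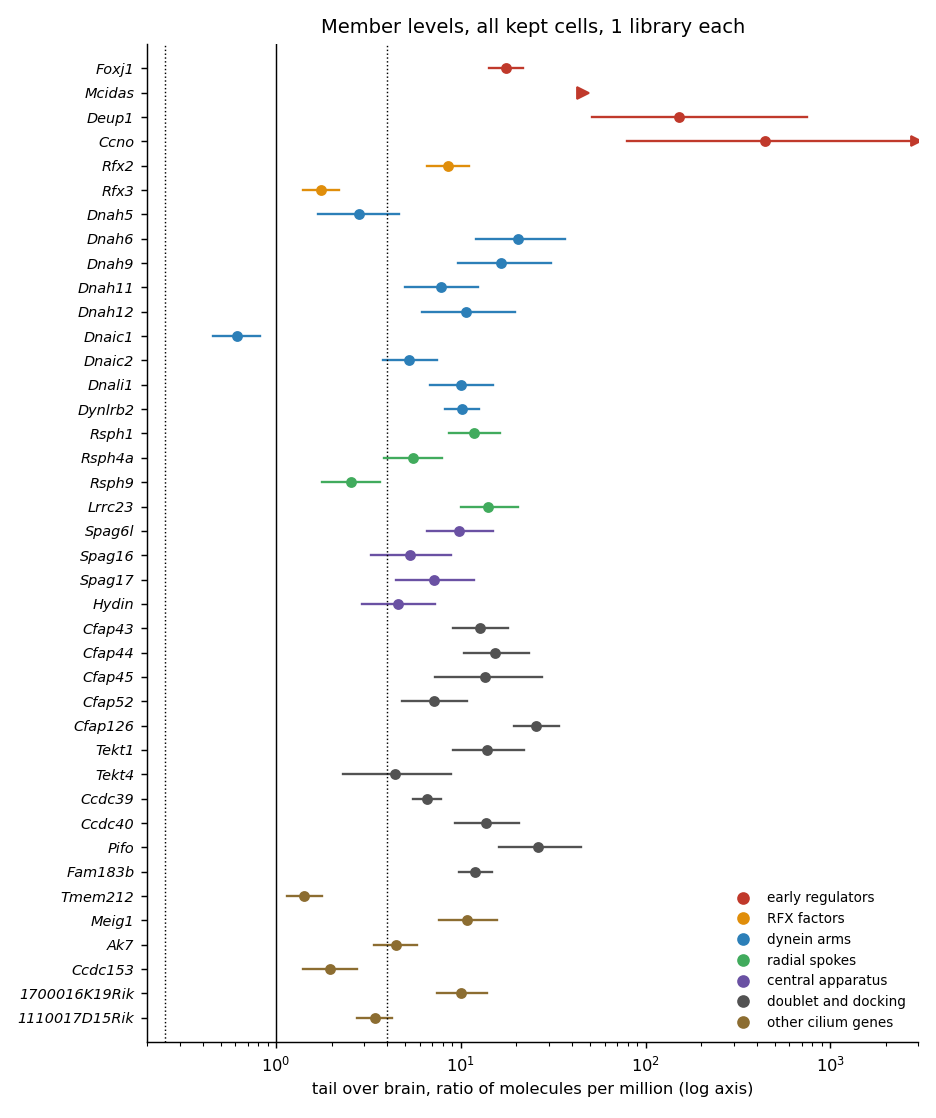
Ratio of the level in the tail over that in the brain for each of the 40 members, over all kept cells, on a log axis, 1 library each. Points are ratios, lines are 95% counting intervals (arrowheads run past the axis), a triangle is a lower bound against 0 brain molecules, and dotted lines mark 4-fold. Ccno (445) and Deup1 (152) lie farthest to the right, and Dnaic1 (0.616) is the only point to the left of 1.

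Early regulators were then set against the axoneme members within each library. The tail held 1215 molecules of the 4 early regulators and 6168 of the axoneme members, or 197 regulator molecules per 1000 axoneme molecules (185 to 210). The brain held 103 and 2009, or 51.3 per 1000 (41.6 to 62.5). The summed ratio of tail over brain was 26.9 (22.0 to 33.2) for the regulators and 7.002 (6.66 to 7.37) for the axoneme members, and these intervals do not overlap. In the brain 99 of the 103 regulator molecules were Foxj1, against 760 of 1215 in the tail.

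The share of cells with axoneme members was compared at equal depth by thinning each cell to 400 molecules, which left out 0.967% of tail cells and 8.99% of brain cells. At least 5 of the 34 axoneme members were found in 57 of 1945 thinned tail cells (2.93%, 2.23 to 3.78) and in 37 of 7270 thinned brain cells (0.509%, 0.359 to 0.701). Without thinning the shares were 15.6% and 0.864%. The line at 5 cuts through a range in the tail, where 52 thinned cells held exactly 4 axoneme members and 25 exactly 5. At 1 axoneme member or more, the thinned share was 37.9% for the tail and 5.03% for the brain.

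Tail cells with more axoneme members had higher levels of the early regulators, as read from unthinned cells in 4 bins. A deeper cell shows more members of both kinds. Tail cells with 0, 1 to 4, 5 to 14 and 15 or more axoneme members numbered 877, 780, 262 and 45, with median depths of 1341, 1157, 1375 and 2429 molecules. Foxj1 stood at 27.2, 257.6, 849.8 and 1363 CPM in that order. Mcidas stood at 0, 4.12, 112.9 and 121.6 CPM, Deup1 at 0, 17.5, 306.6 and 599.1 CPM, and Ccno at 0, 19.6, 320.0 and 494.9 CPM. Over the 877 tail cells with 0 axoneme members, of which 160 were Igfbp5 cells (described below), 0 molecules of Mcidas, Deup1 and Ccno were counted. The intervals of Mcidas in the upper bins overlap widely (81.4 to 152.7 and 66.5 to 204.0 CPM), so no order can be read between them.

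At least 1 of Mcidas, Deup1 and Ccno was found in 3.33% of tail cells with 1 to 4 axoneme members, in 29.0% (23.6 to 34.9) of those with 5 to 14 and in 64.4% (48.8 to 78.1) of those with 15 or more. Among cells thinned to 400 molecules the share was 0.414% at 0 axoneme members (5 of 1208 cells) and 8.24% at 1 to 4. It was 29.8% (18.4 to 43.4) at 5 to 14, and no thinned cell reached 15. The brain had 50 cells with 5 to 14 and 19 with 15 or more axoneme members, and 2 and 1 of them held Deup1, while Mcidas and Ccno had 0 molecules in both bins. The upper limits of these zeros were 62.2 and 106.0 CPM. At 15 or more, that limit overlaps the tail interval of Mcidas (66.5 to 204.0 CPM). Foxj1 stood at 590.5 CPM (411.3 to 821.2) and 747.2 CPM (488.1 to 1095) in those brain bins.

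Rfx2 and Rfx3 followed the axoneme less closely. Rfx2 stood at 41.9, 117.5, 212.4 and 217.1 CPM over the 4 tail bins, and in brain cells with 15 or more axoneme members at 258.7 CPM (118.3 to 491.0). Rfx3 stood at 29.4, 77.3, 64.5 and 60.8 CPM, and the intervals of its upper 3 bins overlap. In brain cells with 0 axoneme members Rfx3 stood at 28.7 CPM, close to its level of 29.4 CPM in the matching tail cells.

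**Figure D2:**
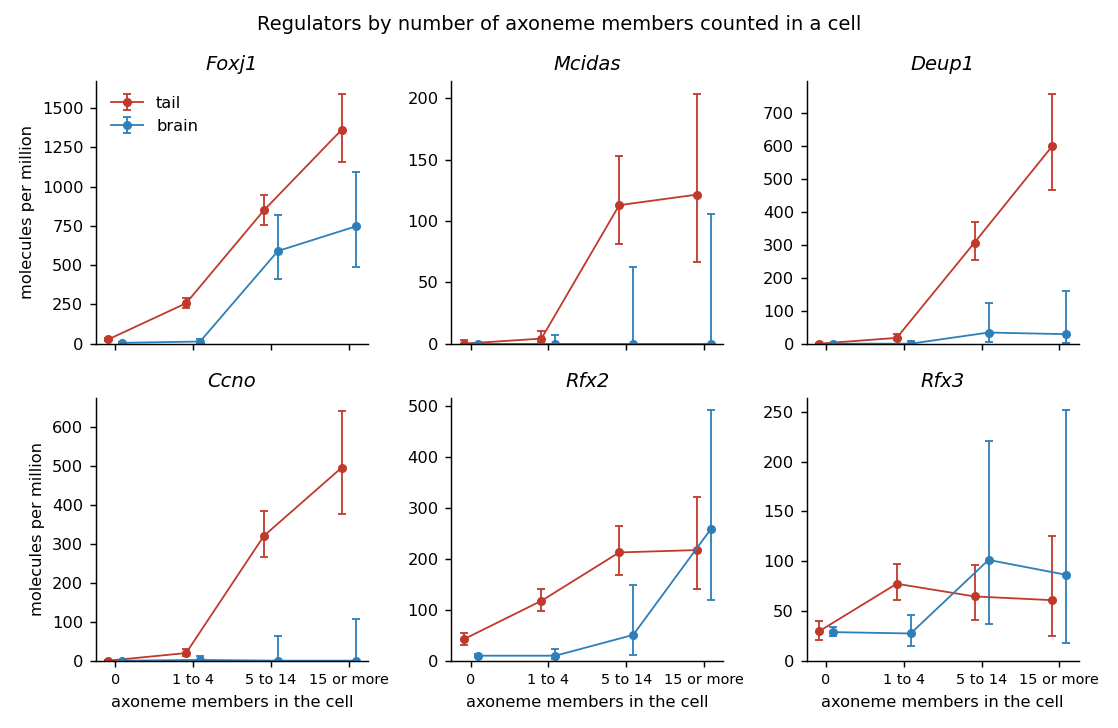
Level of the 4 early regulators, Rfx2 and Rfx3 in CPM, in cells grouped by how many of the 34 axoneme members they hold, for the tail (red) and brain (blue) library, 1 each. Points are summed levels and bars are 95% counting intervals. Mcidas, Deup1 and Ccno climb in the tail from 0 to 121.6, 599.1 and 494.9 CPM, while Foxj1 climbs in both libraries. In the brain Mcidas, Deup1 and Ccno stay at or below 33.7 CPM, with wide intervals in the upper bins (50 and 19 cells).

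The groups of cells came from clustering both libraries together without the listed cilium and cell-cycle genes, and named from marker lists that hold no member. Over both libraries together, the ependymal-like cluster (77 tail and 70 brain cells) counted 10 of 10 ependymal markers. In its tail cells alone, 9 of the 10 had molecules and Rarres2 had none, while all 10 had molecules in its brain cells. The cluster was led by Hdc, Odf3b, Fam216b and Cdhr3. Other axoneme genes such as Odf3b, Iqca and Wdr63, left out of the clustering, were also among its leading genes. Its naming markers Enkur, Fam216b, Nme5, Mlf1 and Iqcg are in the list of other axoneme genes. Cilium genes outside the lists, such as its leading gene Cfap299, were not removed. A high level of the members there is therefore not independent of how the cluster was formed and named. A second cluster, with 999 tail cells (50.9%) and 161 brain cells, held 25642 tail molecules of Igfbp5 and was led by Igfbp5, 1500015O10Rik and H19. It counted 5 of 10 ependymal markers with none among its 10 leading genes, got no cell type name, and is called the Igfbp5 cells. Of these 5, all but Tppp3 (Enkur, Nme5, Mlf1 and Iqcg) are in the list of other axoneme genes, so the count is not independent of the cilium genes. Fibroblast-like tail cells (168 cells), which should lack motile cilia, served as the level of free RNA.

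Igfbp5 cells of the tail carried the members widely but at a lower level than ependymal-like cells. Axoneme members summed to 3079 CPM (2979 to 3181) in the 999 Igfbp5 cells, to 13799 CPM (13233 to 14383) in the 77 ependymal-like cells, and to 38.2 CPM (21.4 to 63.0) in the 168 fibroblast-like cells. The 192 neuroblast-like tail cells stood at 122.9 CPM (85.6 to 170.9) and the 301 cycling-like cells at 480.9 CPM (417.4 to 551.2). Because the Igfbp5 cells are many, they held 58.5% of all tail axoneme molecules and 61.0% of the tail regulator molecules, against 36.3% and 35.2% in ependymal-like cells. The early regulators summed to 632.0 CPM (587.3 to 679.2) in Igfbp5 cells, 2637 CPM (2393 to 2899) in ependymal-like cells and 0 molecules in fibroblast-like cells. Per 1000 axoneme molecules this made 205 (189 to 222) in Igfbp5 and 191 (172 to 212) in ependymal-like tail cells, with overlapping intervals. Both regulator values depended on where the Igfbp5 cells were bounded, being 346.2 CPM and 128 per 1000 with cilium genes among the clustering genes, and 368.6 CPM and 143 per 1000 for the 982 tail cells at or above the median Igfbp5 level of the tail.

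Cell by cell, Igfbp5 cells held a mean of 3.01 and a median of 2 axoneme members, and 221 of 999 (22.1%) held 5 or more. Ependymal-like tail cells held a mean of 15.03, and all 77 held 5 or more. Fibroblast-like cells held a mean of 0.0774 although their median depth, 1991.5 molecules, exceeded the 1129 of Igfbp5 cells. Thinned to 400 molecules, 60.4% of Igfbp5 cells (57.3 to 63.5) held at least 1 axoneme member, against 1.79% of fibroblast-like cells (0.370 to 5.13) and 2.63% of neuroblast-like cells (0.860 to 6.03). In the brain, 11.9% of the thinned Igfbp5 cells did (6.93 to 18.5).

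**Figure D3:**
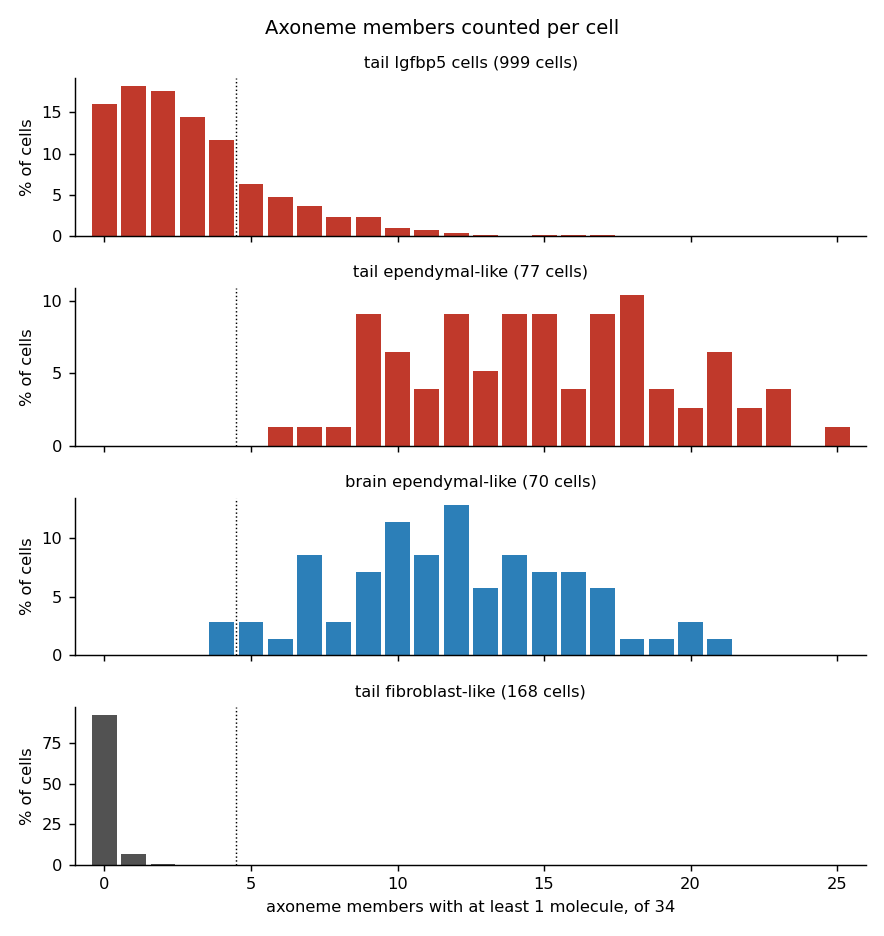
Number of the 34 axoneme members with at least 1 molecule in a cell (horizontal) against the percent of cells of the group (vertical), in 4 groups without thinning. The dotted line lies below 5 members. Tail Igfbp5 cells pile up at 0 to 4 with 22.1% at 5 or more, the 77 tail and 70 brain ependymal-like cells spread around means of 15.03 and 11.97, and fibroblast-like cells sit at 0 and 1 with few at 2.

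Single regulators gave the same order in thinned cells. Foxj1 was found in 14.3% of tail Igfbp5 cells (12.2 to 16.6), 35.1% of ependymal-like cells (24.5 to 46.8), 3.37% of cycling-like cells and 0 of 168 fibroblast-like cells, which allows a share of up to 1.79%. The unthinned shares of Foxj1 were 31.6%, 84.4%, 8.97% and 0%. Mcidas was found in 0.811% of thinned Igfbp5 cells and 7.79% of ependymal-like cells, Deup1 in 2.94% and 15.6%, and Ccno in 2.43% and 19.5%. Unthinned, these were 2.40% and 20.8%, 6.01% and 44.2%, and 5.51% and 42.9%.

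Member by member, 28 had at least 50 molecules over the Igfbp5 and fibroblast-like tail cells, and 27 of them were at least 4-fold higher in Igfbp5 cells, where 6.41% of the 5476 genes tested were. This count was largely fixed by the filter, since 20 of the 28 had 0 fibroblast-like molecules and could pass it through the Igfbp5 cells alone, and it supports nothing by itself. Over all 40 members, 30 had 0 molecules in the fibroblast-like cells, and the others summed to 22. The exception was Rfx3, with 94 and 3 molecules and a ratio of 10.5 (3.48 to 51.8). None was at least 4-fold lower, against 3.51% of all genes. Leaving out the 221 Igfbp5 cells with 5 or more axoneme members left 778 cells, with an axoneme level of 1890 CPM and 12 members called. The cells were left out by the same genes that were then measured, so a fall was fixed in advance. The number of members tested and the share over all genes are not given for this setting.

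Within the Igfbp5 cells the number of axoneme members ran from 0 in 160 cells to 15 or more in 4, with 618 cells at 1 to 4 and 217 at 5 to 14. Igfbp5 itself stood at 21706, 24252 and 16961 CPM in the first 3 of these bins and at 3971 CPM in the last. Foxj1 stood at 191.3, 316.3 and 761.3 CPM over the first 3 bins. Mcidas, Deup1 and Ccno each had 0 molecules in the 160 cells at 0, with an upper limit of 23.5 CPM each. At 1 to 4 they stood at 5.67, 22.7 and 27.0 CPM. These intervals overlap, so no difference can be read between the bins at 0 and at 1 to 4. Median depths there were 877.5 and 1096.5 molecules. Of the 131 tail cells with Mcidas, Deup1 or Ccno, 85 were Igfbp5 cells, 42 were ependymal-like, 3 were cycling-like and 1 lay elsewhere. These 3 regulators were often found together, with 50 tail cells holding 2 of them and 23 holding all 3, and 4 brain cells holding 1 each.

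Igfbp5 and ependymal-like tail cells both held molecules of all 34 axoneme members, and differed in the level of each. Of 38 members tested between them, 14 were at least 4-fold lower in Igfbp5 cells (1.24% of 4918 genes tested) and 0 were higher (0.325%). The ratio of Igfbp5 over ependymal-like cells ran from 0.0159 for Ccdc153 to 1.08 for Cfap43, with a median of 0.226 over the 38 tested and 1.02 over all genes tested. Tmem212 and Ccdc153 stood at 0.0614 (0.0418 to 0.0888) and 0.0159 (0.00613 to 0.0348). Cfap126, Ccdc39 and Fam183b stood at 0.388 (0.322 to 0.469), 0.291 (0.238 to 0.356) and 0.291 (0.244 to 0.350). Deup1 and Ccno, at 0.157 (0.117 to 0.210) and 0.162 (0.121 to 0.217), lay further below the ependymal-like level than Foxj1 at 0.309 (0.264 to 0.364). Rfx2 was at 0.651 (0.461 to 0.940), and the interval of Rfx3 (0.5002 to 1.61) includes 1.

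By role, doublet and docking genes gave 54.2% (52.5 to 55.8) of the axoneme molecules in tail Igfbp5 cells, 33.9% (32.0 to 35.9) in tail ependymal-like cells and 24.4% (22.1 to 26.7) in brain ependymal-like cells. The remaining cilium genes (Tmem212, Meig1, Ak7, Ccdc153 and the RIKEN genes 1700016K19Rik and 1110017D15Rik) ran the other way, with 12.4% (11.3 to 13.5), 24.0% (22.2 to 25.8) and 42.7% (40.0 to 45.3). The intervals do not overlap between any pair of these groups. Dynein arm genes gave 19.4%, 23.0% and 17.6%.

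**Figure D4:**
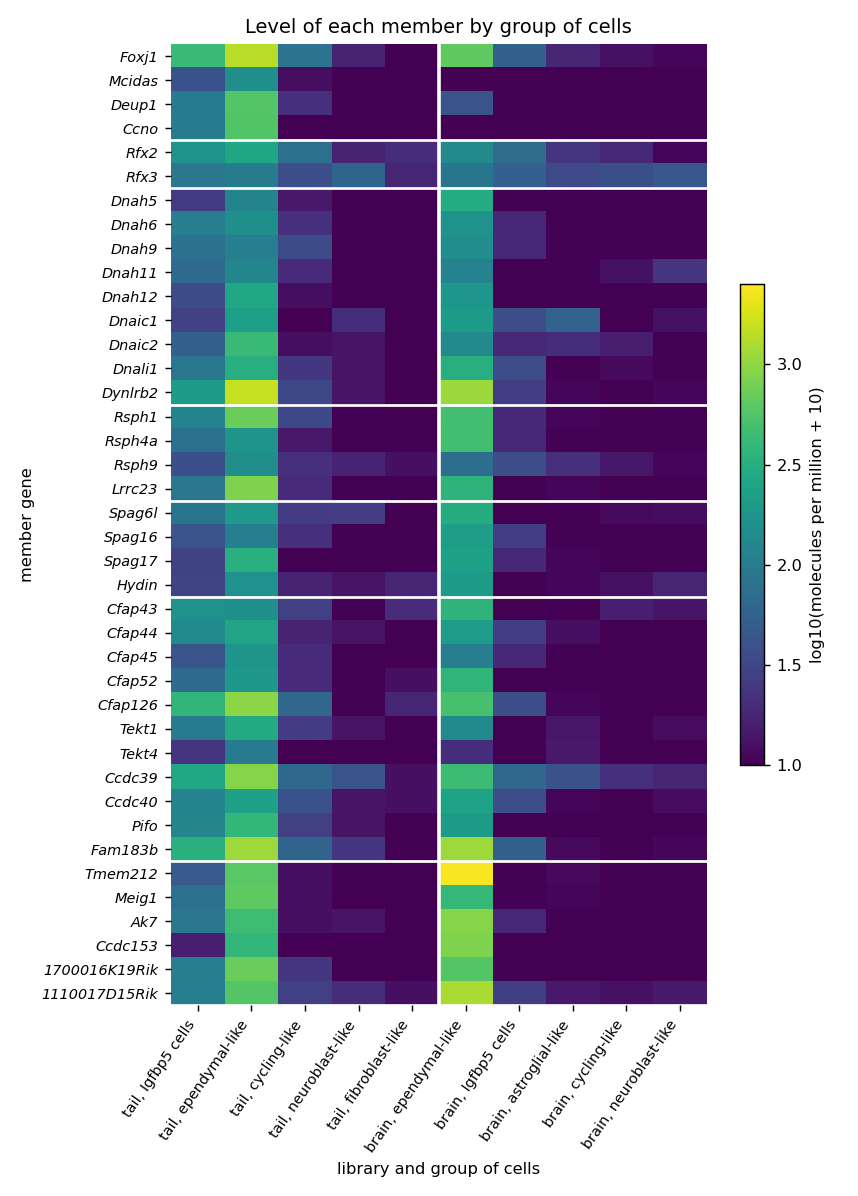
Level of each member (rows, ordered by role) in 5 tail and 5 brain groups of cells (columns), as log10 of CPM plus 10. Ependymal-like columns are bright for most members in both libraries, the tail Igfbp5 column is intermediate and is dimmest for Ccdc153 (5.97 CPM), and Mcidas, Deup1 and Ccno are bright only in tail columns, with Deup1 at 32.0 CPM in brain ependymal-like cells.

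The comparison of ependymal-like cells asked whether the libraries still differed within the same group. Axoneme members summed to 13799 CPM in the 77 tail cells and 14775 CPM in the 70 brain cells, a ratio of 0.934 (0.873 to 0.999). Sums by role differed in direction, but members of the same role also went both ways, as listed below. The ratio was 1.22 (1.05 to 1.43) for the dynein arm genes, 1.39 (1.13 to 1.73) for the radial spoke genes and 1.3004 (1.14 to 1.48) for the doublet and docking genes. It was 0.815 (0.614 to 1.09) for the central apparatus genes and 0.525 (0.466 to 0.591) for the remaining cilium genes, among them Tmem212. Of the dynein arm molecules, 247 of 516 in the tail and 102 of 243 in the brain were of the light chain gene Dynlrb2. Of the radial spoke molecules, 137 of 304 in the tail and 33 of 126 in the brain were of Lrrc23. The ratios of these roles without these genes were not tested, so the role sums may rest on single genes. The median over the 34 axoneme members was 1.11. The early regulators summed to 2637 and 673.0 CPM, a ratio of 3.92 (3.00 to 5.19). Deup1 had 91 tail and 3 brain molecules (ratio 17.5, 5.80 to 86.4), and Ccno had 90 and 0, at least 17.3-fold higher against the floor of 3 molecules, with a lower limit of 13.8. Both were called at least 4-fold higher, as were 2.28% of the 879 genes tested, and both reached 50 molecules through the tail cells alone. Mcidas had 24 and 0 molecules, at least 4.61-fold higher against that floor, but its molecules were under 50 and its lower limit of 3.47 was under 4-fold, so it was not called. Foxj1 differed by less, with 223 and 60 molecules and a ratio of 2.14 (1.61 to 2.90).

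No axoneme member was called in either direction among the 25 tested, where 3.19% of all genes were at least 4-fold lower. Over all 34 axoneme members the ratios ran from 0.253 for Tmem212 to 8.07 (1.23 to 341.3) for Tekt4, which had only 14 tail and 1 brain molecules. Intervals lay above 1 for 10 of the 34, below 1 for 9, and included 1 for 15. Those above were Dnaic2, Dynlrb2, Rsph1, Lrrc23, Cfap126, Tekt1, Tekt4, Ccdc39, Pifo and Meig1, and those below were Dnah5, Rsph4a, Spag16, Cfap43, Cfap52, Tmem212, Ak7, Ccdc153 and 1110017D15Rik. Of the genes described in full, Tmem212 (97 and 221 molecules, 0.253, 0.197 to 0.323), Ccdc153 (61 and 79, 0.445, 0.313 to 0.630), Ak7 (71 and 85, 0.482, 0.346 to 0.668), 1110017D15Rik (91 and 116, 0.452, 0.340 to 0.600), Rsph4a (27 and 43, 0.362, 0.215 to 0.599), Spag16 (16 and 20, 0.461, 0.224 to 0.937) and Dnah5 (18 and 28, 0.371, 0.193 to 0.694) were lower in the tail. Ccdc39 (148 and 40, 2.13, 1.496 to 3.11), Cfap126 (154 and 46, 1.93, 1.38 to 2.75) and Dnaic2 (65 and 12, 3.12, 1.67 to 6.35) were higher. Fam183b, at 1115 and 1100 CPM, had a ratio of 1.01 (0.791 to 1.304), and Dnaic1, lower in the tail over all cells, had 1.12 (0.618 to 2.10) here.

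Markers of other ciliated or ventricular cells were also read. Choroid plexus markers summed to 30.8 and 160.2 CPM with Ttr at 0 in both, and markers of airway ciliated cells to 12.3 and 309.8 CPM. Of the 29 molecules of the airway list in the brain cells, 28 were of Sntn, a gene of ciliary tips that is also in the list of other axoneme genes and had 0 molecules in the tail cells. The 8 cycling markers summed to 174 molecules in tail and 0 in brain ependymal-like cells. When cells were instead taken by 5 or more axoneme members (307 tail and 69 brain cells), the axoneme ratio was 0.599 and the regulator ratio 2.68, the tail group then being mostly Igfbp5 cells.

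**Figure D5:**
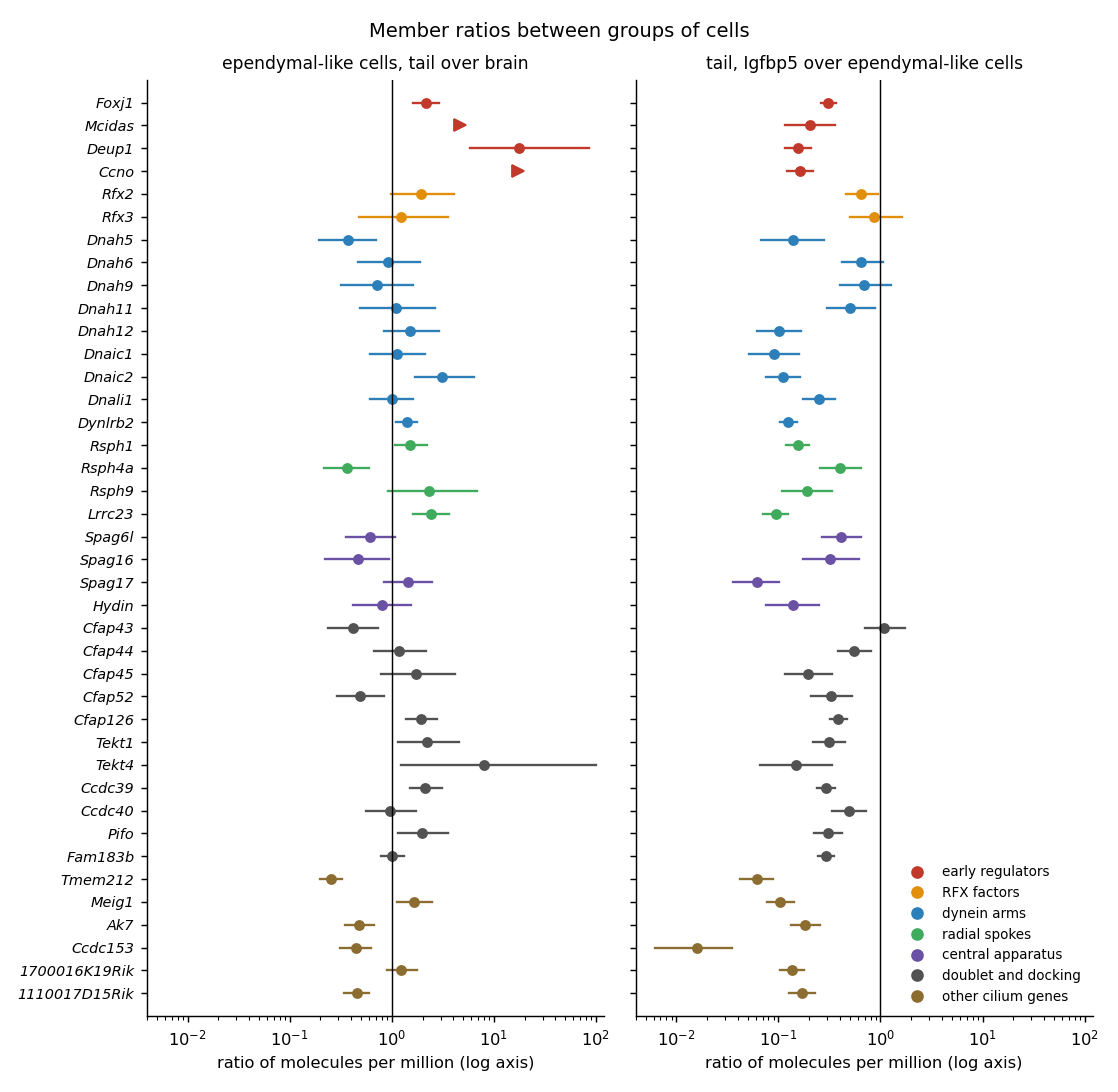
Ratio of levels for each member on a log axis, between tail and brain ependymal-like cells (left) and between Igfbp5 and ependymal-like cells of the tail (right), with points for ratios, lines for 95% counting intervals and triangles for lower bounds against 0 molecules (the Tekt4 interval, up to 341.3, runs past the axis). On the left, Deup1 (17.5), Mcidas and Ccno lie far to the right of 1 while Tmem212 (0.253) lies to its left. On the right nearly all members lie below 1, from Ccdc153 at 0.0159 to Cfap43 at 1.08.

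The early regulators and the cell cycle met in the tail, a comparison chosen after the values were seen. Among tail cells with 5 or more axoneme members, 105 held Mcidas, Deup1 or Ccno and 202 held none, with median depths of 1800 and 1351 molecules. Mki67 or Top2a was found in 14.3% (8.22 to 22.5) of the first and 1.98% (0.542 to 4.99) of the second after thinning, and in 51.4% and 4.95% without thinning. Top2a, a topoisomerase of dividing cells, stood at 456.4 and 44.9 CPM, Cdk1, the mitotic kinase, at 395.6 and 24.2 CPM, and Ccnb1, its cyclin partner, at 136.9 and 6.90 CPM. Mki67 stood at 45.6 and 20.7 CPM. Mcm2, of the helicase that licenses replication, had 1 molecule (5.07 CPM) in the cells with an early regulator and 14 (48.3 CPM) in those without. Pcna, the sliding clamp of replication, had 5 and 8 molecules (25.4 and 27.6 CPM).

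The cycling-like tail cells had another profile. Their 298 cells without Mcidas, Deup1 or Ccno held Top2a at 486.8 CPM, Cdk1 at 245.8 CPM, Mki67 at 290.7 CPM and Mcm2 at 66.2 CPM. The 8 cycling markers summed to 1349 CPM (1192 to 1521) in the 105 cells and 151.8 CPM (110.3 to 203.8) in the 202. Within Igfbp5 cells with 5 or more axoneme members the sums were 1086 CPM (882.7 to 1322) in 60 cells and 91.1 CPM (55.7 to 140.7) in 161, and within ependymal-like cells 1616 CPM (1378 to 1885) in 42 cells and 178.9 CPM (89.3 to 320.1) in 35. Scrublet called 0 of the 105 cells and 1 of the 202 doublets, and the part of undetected doublets was not tested. In the brain, 0 molecules of the 8 markers were counted in the 69 cells with 5 or more axoneme members.

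Other genes of the pathway were read from lists of 20 further regulators and centriole genes, 15 dynein assembly genes, 61 other axoneme genes, 25 intraflagellar transport genes and 25 primary cilium genes. Of the tested genes, 3 of 17, 6 of 8, 25 of 42, 1 of 23 and 0 of 24 were at least 4-fold higher in the tail, beside 6.35% of all genes tested, and 0 of any list were lower, beside 4.66%. Median ratios of tail over brain were 1.96, 9.26, 6.95, 2.39 and 2.22 in the same order, beside 1.21 over all genes tested. The lists particular to motile cilia (dynein assembly and other axoneme genes) had most calls. The shares in the intraflagellar transport and primary cilium lists were near or below that of all genes.

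The 2 genes with most molecules of each list were these. The tubulin genes Tuba1a and Tubb4b had ratios of 0.776 (0.751 to 0.802) and 2.10 (1.94 to 2.28). Ccdc114 and Zmynd10, for docking and assembly of dynein arms, had 8.94 (7.34 to 11.0) and 11.6 (7.87 to 17.7). Mns1 and Cfap20, of the doublet, had 6.75 (5.67 to 8.07) and 2.20 (1.87 to 2.57). The intraflagellar transport genes Ift74 and Ift20 had 5.55 (4.87 to 6.34) and 2.60 (2.30 to 2.93), and the primary cilium genes Cc2d2a and Arl3 had 0.871 (0.722 to 1.05) and 1.65 (1.38 to 1.97).

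The 3 further regulators called higher in the tail, named after their values were seen, were Gmnc, Myb and Trp73, each known from multiciliated cells, with 49 and 1, 165 and 26, and 45 and 12 molecules. Gmnc, which acts upstream of Mcidas, had 45 of 49 tail molecules (91.8%) in the many Igfbp5 cells and 1 in ependymal-like cells. As levels these were 38.4 CPM (28.0 to 51.4) and 6.16 CPM (0.156 to 34.3), and the intervals overlap. Myb stood at 73.4 CPM in Igfbp5 and 381.9 CPM in ependymal-like tail cells. Trp73, a transcription factor of the p53 family, stood at 20.5 and 104.7 CPM there. Plk4 and Stil, centriole genes named here after their values were seen, stood at 227.9 and 184.8 CPM in tail ependymal-like cells and had 0 molecules in brain ependymal-like cells, where 3 molecules would be 32.0 CPM.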

How the data were processed

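The authors deposited, per the file headers, molecule counts per gene and barcode from the BD Rhapsody WTA Analysis Pipeline 1.10.1 (GRCm38, GENCODE vM19). A later pipeline version is named in the methods of the study. Error-corrected molecule counts were used as deposited. The cell filter was over 200 genes, under 4000 genes and less than 40% mitochondrial molecules. Ratios of summed counts had conditional exact binomial intervals, shares Clopper-Pearson and CPM exact Poisson intervals, at 95%. Clustering used Seurat 5.3.0 with anchor integration as in the study, but with a fixed 30 components and resolution 0.3. The study chose these by JackStraw and clustree in an earlier version. Of 2000 variable genes, 61 listed cilium genes and 63 cell-cycle genes were left out. The study also trimmed cell-cycle genes, by a Gene Ontology term, where the list of Seurat was used here. A cluster was named from markers when 3 or more were 2-fold higher in 10% of its cells or more and at least 1 was among its 10 leading genes, and these thresholds were set after the clusters were seen. Scrublet (scanpy 1.11.5, expected rate 0.05) called 7 tail and 67 brain cells doublets, which were kept. Described in full were the 6 transcription and centriole regulators, the 3 axoneme members with most molecules and the members whose 4-fold call differed from most, with up to 2 genes of each other list. Names outside this rule were chosen after their values were seen. Members and lists were chosen with earlier results of these data known. Positions come from GENCODE vM21. Alternatives used TMM (edgeR 4.0.16) and median-of-ratios scaling (DESeq2 1.42.0), uncorrected molecules, other filters, doublet removal, other thinning, thresholds and groupings. With 1 library per group, no replicate could be left out.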

Additional observations from a re-analysis of the deposited data

Results flagged for a closer look

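Barcodes left out by the filters, which enter no comparison, also held axoneme molecules. In the tail 505 such barcodes held 85 of them, or 1079 CPM of the molecules that were not mitochondrial, against 2513 in kept cells. In the brain 4123 such barcodes held 143, or 353.2 CPM, against 366.4 in kept cells. Both counts are above the 3 molecules that a count of 0 allows. At least 5 axoneme members were found in 1 of the tail and 4 of the brain barcodes left out.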

How the results depend on the processing

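The ratios of tail over brain for regulators and axoneme members were 20.6 and 5.36 with TMM and 20.9 and 5.43 with the median of ratios, which multiply both by 1 factor and cannot change their order. As means over cells they were 36.4 and 9.39, where the tail held 183 regulator molecules per 1000 axoneme molecules. With at least 200 molecules required, 15 members were called higher in the tail. The percent of cells with 5 or more axoneme members, tail and brain, was 15.6 and 0.864 without thinning and 10.9 and 1.86 at 800 molecules. It was 10.5 and 0.894 for 3 or more members and 0.514 and 0.0963 for 8 or more. Tail Igfbp5 cells taken by Igfbp5 at or above the tail median had axoneme members at 2585 CPM, regulators at 368.6 CPM and 143 per 1000. With cilium genes among the variable genes these were 2707, 346.2 and 128, and Foxj1 was in 12.1% of cells. At resolution 0.5 the axoneme level was 3203 CPM. Without the cells of 5 or more axoneme members it was 1890 CPM, the regulators 338.8 CPM, 179 per 1000, and 12 members were called against fibroblast-like cells. The lower axoneme level was fixed in advance there, since the cells were left out by those genes. Cells with 5 or more axoneme members in place of ependymal-like ones gave 2.68 for regulators and 0.599 for axoneme members, with 1 member called tail-higher and 2 called brain-higher. The number tested and the share over all genes are not given for that grouping. The cause was not tested where the construction of the alternative does not give it. No paired analysis was possible because each group is 1 library. Depth limits readings in single cells, where few members are seen in 400 molecules.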

Other observations

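Some further values belong to no comparison above. Among centriole genes, Ccp110 stood at 338.8 CPM and Cep78 at 135.5 CPM in tail ependymal-like cells, and at 64.0 and 18.8 CPM in tail Igfbp5 cells. In brain ependymal-like cells Ccp110 stood at 64.1 CPM and Cep78 had 0 molecules. Foxn4, a forkhead gene, had 12 molecules in tail Igfbp5 cells, 14 in tail ependymal-like cells and 0 in the brain library. E2f5, a partner of the geminin-family proteins, stood at 80.2 CPM in tail Igfbp5 cells and 24.6 CPM in tail ependymal-like cells. Spag6, the near-copy of Spag6l, had 1 molecule in the tail and 0 in the brain.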
